A study of Mus musculus with 6 samples.

Results

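The 10 Rgs genes described here, which encode regulators of G protein signalling, were read in mouse marrow cells sorted by green fluorescent protein (GFP) and in the unsorted marrow they came from. The members were Rgs1, Rgs2, Rgs3, Rgs5, Rgs10, Rgs12, Rgs14, Rgs16, Rgs18 and Rgs19, taken by symbol from the array's annotation, and all 10 were found among 18193 named genes. A gene was read by its probe set (a group of short array probes for one transcript) with the highest mean over all 6 arrays, and its other probe sets are given beside it. The sorted samples (n = 3) were GFP-positive marrow cells, and the presort samples (n = 3) were whole marrow set aside from the same pools before the sort. Every mouse in both groups was hemizygous for the transgene of the line Tg(Ren1-GFP)2Kwg, in which renin gene sequences drive GFP. The mice were adults of both sexes, 3 to 6 months old, with no other treatment given in the labels. Femoral marrow of 4 to 5 animals was pooled for each of 3 sorts, so 1 array stands for 1 pool and not for 1 animal, and sorted and presort arrays of one number share a pool. Scatter gates first removed erythrocytes, debris and clumped cells, and the GFP limit was set where 0.1% of transgene-negative cells still passed. The presort samples went through no gate. Renin itself was not analysed here. Values are log2 of the deposited intensity, each from 1 array, and a difference of 1 on this scale is 2-fold.

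Receptors that couple to G proteins switch on the G protein alpha subunit by making it exchange GDP for GTP. RGS proteins bind the active alpha subunit through a shared domain, the RGS domain, and speed its hydrolysis of GTP, which ends the signal. The family is sorted by sequence into the R4, R7, R12 and RZ subfamilies. In leukocytes these proteins limit the response to chemokines and other migration cues, and they are known there mainly as regulators of Gi and Gq signalling.

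The Rgs genes differed between sorted and presort samples in both directions. Rgs1, Rgs2 and Rgs16, all of the R4 subfamily, rose in sorted samples, and Rgs3 and Rgs18 of R4 and Rgs10 and Rgs12 of R12 fell. Rgs5, Rgs14 and Rgs19 did not pass the test (limma, Benjamini-Hochberg adjusted p under 0.05 over all 18193 genes). The counts were 3 of 10 higher and 4 of 10 lower, where 14.5% of all genes were called higher, 18.1% lower and 32.6% either way. The sorted and presort ranges did not overlap for 9 of the 10 genes, 3 of them higher and 6 lower, against 44.4% of all genes (20.9% higher and 23.6% lower). The median difference of the 10 genes was -0.46, against 0.00 (-0.0021) over all genes, and it sums up genes that moved in opposite directions.

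**Figure D1:**
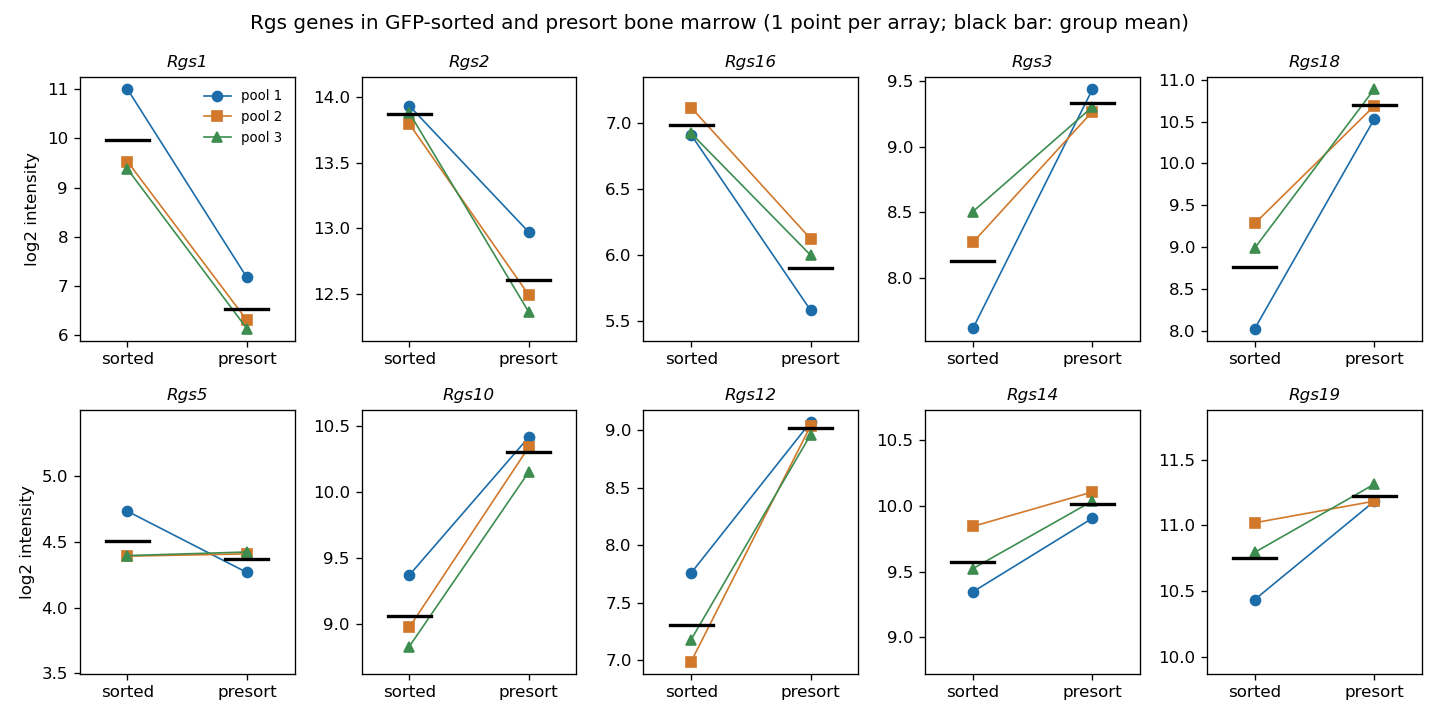
Log2 intensity (y axis, each panel with its own range) of the 10 Rgs genes in the 3 sorted and 3 presort arrays, with lines joining arrays of one pool and black bars for group means. In the first 3 panels every sorted array lies above every presort array, Rgs5 overlaps, and in the other 6 panels every sorted array lies below.

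Other features of the arrays moved with the groups. For beta-actin, the excess of the 3' over the 5' probe set was 3.17, 1.54 and 1.43 on the log2 scale in sorted replicates 1, 2 and 3, against 1.11, 0.95 and 0.81 in presort replicates 1, 2 and 3, with an exact permutation p of 0.1 (two-sided), the least that 3 arrays a group can give. Sorted replicate 1 stood apart in this measure of RNA quality, and all 7 calls of Rgs genes held without it. All 9 measured B lineage markers rose, with a summed intensity of 71779 to 77378 in sorted and 11788 to 21954 in presort samples. All 10 neutrophil markers, all 10 monocyte and macrophage markers and all 8 measured erythroid markers fell. Their sums were 56809 to 105220 in sorted and 193000 to 201320 in presort samples for neutrophil markers, and 7156 to 14668 in sorted and 47061 to 52078 in presort samples for monocyte and macrophage markers. Of 8 T and NK cell markers 2 fell. Of 7 plasmacytoid dendritic cell markers 2 rose (Tcf4 and Spib) and 3 fell (Siglech, Bst2 and Ccr9). Beside these counts, 14.5% of all genes were called higher and 18.1% lower. With the beta-actin measure as a covariate, 8 B lineage markers were called higher. Called lower were 7 neutrophil, 8 monocyte and macrophage, 6 erythroid and 1 T and NK cell markers. Of the plasmacytoid dendritic cell markers, 2 were then called higher and none lower. That fit called 2096 of all 18193 genes higher and 2732 lower. In such bulk samples, a change in the number of cells of a type and a change in RNA per cell cannot be told apart. The part of cell composition in the differences below was not tested.

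Rgs1, a regulator of chemokine receptor signalling in B cells, had the largest difference of the 10 genes. It stood at 11.00, 9.53 and 9.38 in sorted replicates 1, 2 and 3, against 7.18, 6.31 and 6.14 in presort replicates 1, 2 and 3. The lowest sorted array lay 2.20 above the highest presort array, and pool 1 had the higher value in both groups. The rise was 3.43 ± 0.45 (SE, log2, n = 3 each), or 10.8-fold, with a limma adjusted p of 0.000669, and it ranked number 24 among the rises of all genes. The pools gave 3.82, 3.22 and 3.24. Without sorted replicate 1 the rise was 2.91, and with this actin measure as a covariate it was 2.36 (limma adjusted p = 0.00105). Only 1 probe set reads this gene.

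Rgs2, which acts preferentially on Gq and is an immediate early gene in several cell types, was bright in both groups. It stood at 13.93, 13.79 and 13.88 in sorted replicates 1, 2 and 3, against 12.97, 12.49 and 12.37 in presort replicates 1, 2 and 3. The sorted arrays lay close together and the presort arrays spread more, with pool 1 highest, so that the difference was 0.96 in pool 1, 1.30 in pool 2 and 1.51 in pool 3. The rise was 1.26 ± 0.17 (SE, log2; 2.39-fold; limma adjusted p = 0.000714). All 4 probe sets of Rgs2 rose, the other 3 by 1.58, 1.63 and 1.26, where 25.9% of all probe sets on the array were called in either direction.

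Rgs16, a regulator of Gi and Gq signalling that many cells induce on stimulation, stood at 6.91, 7.12 and 6.92 in sorted replicates 1, 2 and 3, against 5.58, 6.12 and 6.00 in presort replicates 1, 2 and 3. The groups were separated by 0.79. The rise was 1.08 ± 0.16 (SE, log2; 2.12-fold; limma adjusted p = 0.00124). Of its other 2 probe sets, 1426037_a_at ranged from 6.58 to 7.17 in sorted and 4.76 to 5.05 in presort samples and rose by 1.89 ± 0.17. The third, 1451452_a_at, ranged from 4.79 to 4.95 in sorted and 4.50 to 4.62 in presort samples and was not called, with a difference of 0.30 (limma adjusted p = 0.0705 over probe sets). All its values, and the presort values of 1426037_a_at, lay below 5.21, the median of 18 genes of other organs used as a background gauge. Both differences thus rest on values near background. The probe set that stands for the gene lay above that median but within the range of those genes, 3.58 to 8.36.

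Immediate early genes moved in the same arrays as these risers. Of the 12 listed, 11 rose and none fell, and their summed intensity was 60258 to 77506 in sorted and 12193 to 39133 in presort samples. With the actin covariate 4 of the 12 were called higher, and without sorted replicate 1 there were 10. Their median difference was 1.96 in the main fit, 1.78 with the actin covariate and 1.94 without sorted replicate 1. The fit with the actin covariate called 2096 of all 18193 genes higher, against 2629 in the main fit. Presort replicate 1 held the highest presort sum, as it held the highest presort value of Rgs1 and Rgs2, but the lowest of Rgs16. Other marker sums differed between these arrays too. In presort replicates 1, 2 and 3 the B lineage sum was 21954, 13371 and 11788. The megakaryocyte and platelet sum was 1611, 7533 and 4754. The parts of the immediate early response and of cell composition in the values of Rgs1, Rgs2 and Rgs16 were not tested.

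Rgs18, a regulator known from megakaryocytes, platelets and other haematopoietic cells, had the largest fall of the 10 genes. It stood at 8.03, 9.28 and 8.99 in sorted replicates 1, 2 and 3, against 10.53, 10.69 and 10.89 in presort replicates 1, 2 and 3. The groups were separated by 1.24, and sorted replicate 1 was the lowest array. The difference was -1.93 ± 0.30 (SE, log2; 3.82-fold lower; limma adjusted p = 0.00157), and the other probe set, 1449856_at, gave -1.94 ± 0.27. With the actin covariate it was -1.21 (limma adjusted p = 0.00226). Among megakaryocyte and platelet markers, 4 of 8 fell and none rose, where 18.1% of all genes were called lower. With the actin covariate 1 fell, and with the replicate block 6. The summed intensities of these markers were 735 to 2669 in sorted and 1611 to 7533 in presort samples. Those sums varied 4.68-fold among the presort arrays. Ppbp, which was not called, stood at 5.86, 11.33 and 10.52 in presort replicates 1, 2 and 3. The part of platelet RNA in the Rgs18 difference was not tested.

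Rgs3, which acts on Gi and Gq and also binds beta-gamma dimers, fell at its brightest probe set. It stood at 7.62, 8.27 and 8.51 in sorted replicates 1, 2 and 3, against 9.43, 9.27 and 9.30 in presort replicates 1, 2 and 3. The difference was -1.20 ± 0.22 (SE, log2; 2.30-fold lower; limma adjusted p = 0.00345), and it was -1.81 in pool 1, -0.99 in pool 2 and -0.79 in pool 3. Its 4 probe sets did not move alike. The probe set 1425701_a_at fell by 1.31 ± 0.14, whereas 1449516_a_at and 1454026_a_at stood at -0.25 ± 0.20 and 0.07 ± 0.12 and were not called. With the mean of the 4 probe sets the difference was -0.67 (limma adjusted p = 0.00673), and with the actin covariate it was -0.72 (0.0168). Rgs3 makes several transcripts, and which of them each probe set reads was not examined.

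Rgs5, the R4 member best known from pericytes and vascular smooth muscle, stood at 4.73, 4.39 and 4.39 in sorted replicates 1, 2 and 3, against 4.27, 4.41 and 4.42 in presort replicates 1, 2 and 3, with overlapping groups and a difference of 0.14 ± 0.13 (SE, log2; limma adjusted p = 0.504). None of its 4 probe sets, which ranged from 3.75 to 4.73 over all arrays, was called. As a gauge of background, 18 genes of other organs ranged from 3.58 to 8.36, with a median of 5.21. All Rgs5 values lay within that range and below that median, so expression of Rgs5 was not shown in either group. Without sorted replicate 1 the difference was 0.03, with the actin covariate -0.06 and with median centring of each array 0.37 (limma adjusted p = 0.0712), and no alternative called it. Of 10 pericyte and smooth muscle markers, 1 rose (Tagln) and 1 fell (Acta2), where 14.5% of all genes were called higher and 18.1% lower. The summed intensities of these markers were 626 to 880 in sorted and 1084 to 1512 in presort samples. Without Acta2 the sums of the other 9 overlapped, at 499 to 568 in sorted and 515 to 668 in presort samples. Tagln lost its call without sorted replicate 1 and with the actin covariate.

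**Figure D2:**
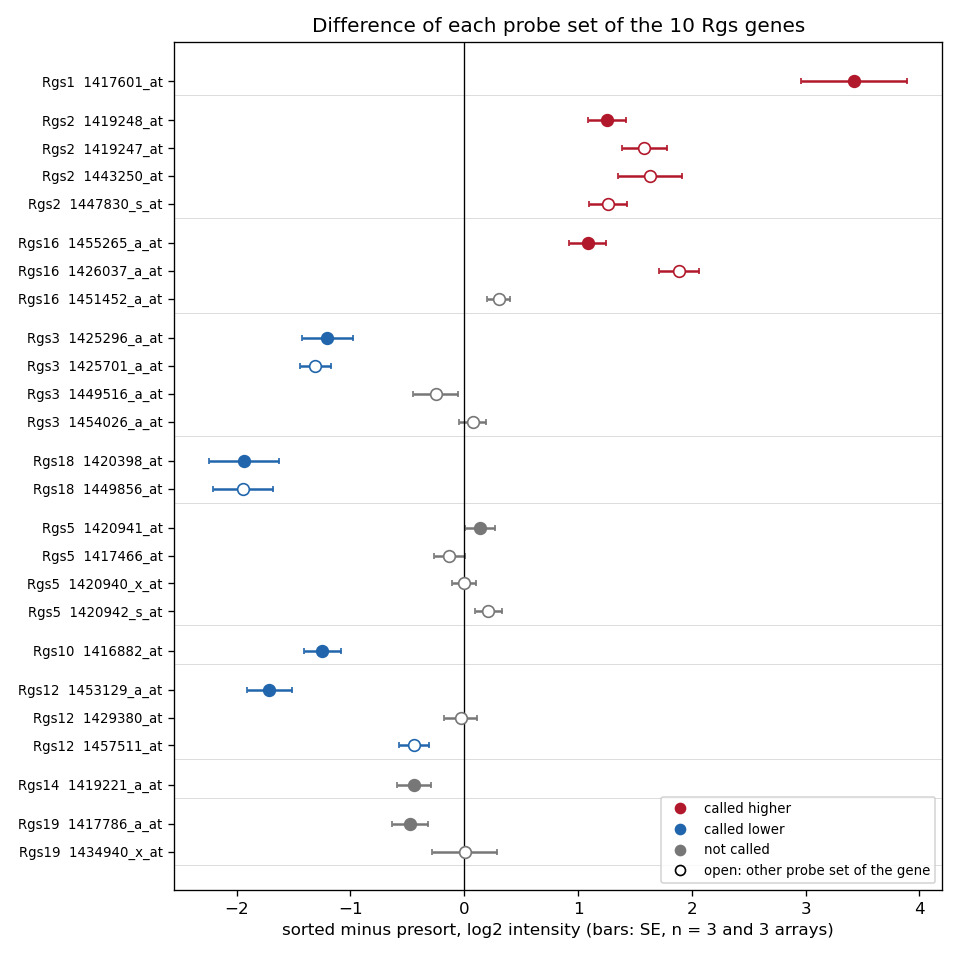
Sorted minus presort difference (x axis, log2 intensity, bars for SE) of all 25 probe sets of the 10 genes, 14 of them called (25.9% of all probe sets), filled for the probe set that stands for the gene. All probe sets of Rgs2 lie above 0 and both of Rgs18 below, while Rgs3, Rgs12 and Rgs16 each hold called and uncalled ones.

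The R12 subfamily was lower in sorted samples in all 3 of its genes, of which 2 passed the test. Of all genes, 18.1% were called lower. Rgs12, a large multidomain member that also carries a GoLoco motif for inactive Gi, stood at 7.76, 6.99 and 7.18 in sorted replicates 1, 2 and 3, against 9.07, 9.04 and 8.96 in presort replicates 1, 2 and 3. The presort arrays lay within 0.11 of each other, and every sorted array was at least 1.20 lower. The difference was -1.71 ± 0.19 (SE, log2; 3.28-fold lower; limma adjusted p = 0.000315). A second probe set, 1457511_at, fell by 0.44 ± 0.13, and the third, 1429380_at, stood near 5 on all arrays with a difference of -0.03, and the mean of the 3 gave -0.73 (limma adjusted p = 0.000904).

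Rgs10, a small Gi regulator expressed in macrophages and platelets, is read by 1 probe set. It stood at 9.37, 8.97 and 8.83 in sorted replicates 1, 2 and 3, against 10.42, 10.34 and 10.15 in presort replicates 1, 2 and 3. The groups were separated by 0.78, and the pools gave -1.05, -1.37 and -1.33. The difference was -1.25 ± 0.16 (SE, log2; 2.37-fold lower; limma adjusted p = 0.000632). Its profile over the 6 arrays lay nearer to that of Rgs12 than to that of any other of the 10 genes, at a root mean square distance of 0.27 after centring each profile on its mean.

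Rgs14, the R12 member with Ras binding domains and a GoLoco motif, stood at 9.35, 9.84 and 9.52 in sorted replicates 1, 2 and 3, against 9.91, 10.11 and 10.04 in presort replicates 1, 2 and 3. Rgs19 of the RZ subfamily, also known as GAIP and first found as a partner of the Gi3 alpha subunit, stood at 10.44, 11.02 and 10.80 in sorted replicates 1, 2 and 3, against 11.18, 11.18 and 11.31 in presort replicates 1, 2 and 3. Neither gene overlapped between the groups, but the gaps were only 0.06 for Rgs14 and 0.16 for Rgs19. Their differences were -0.44 ± 0.15 and -0.48 ± 0.16 (SE, log2), each with a limma adjusted p of 0.0539. With the replicate number as a block, both passed (0.0269 for Rgs14 and 0.0417 for Rgs19). The second probe set of Rgs19, 1434940_x_at, gave 0.01 ± 0.29, and the mean of both probe sets -0.23 (limma adjusted p = 0.476). With median centring of each array the differences were -0.22 and -0.25 and did not pass, and with the actin covariate they were -0.23 and -0.18. The profiles of Rgs14 and Rgs19 were the closest pair among the 10 genes, at a distance of 0.09. Profiles were not scaled, so genes with small differences lie close together by this measure.

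Among 9 further Rgs genes that were measured, 1 rose, namely Rgs13. Rgs13, an R4 member known from germinal centre B cells and mast cells, stood at 6.47, 6.73 and 7.03 in sorted replicates 1, 2 and 3, against 4.08, 4.24 and 3.85 in presort replicates 1, 2 and 3. Its rise was 2.68 ± 0.17 (SE, log2; 6.43-fold; limma adjusted p = 2.66e-05), and the groups were separated by 2.23. All its presort values lay below 5.21, the median of the genes of other organs, so the size of its rise rests on values near background. The other 8 genes (Rgs4, Rgs6, Rgs7, Rgs8, Rgs9, Rgs11, Rgs17 and Rgs20) had differences between -0.09 and 0.29 and were not called. With median centring of each array, 6 of the 9 were called higher. That centring called 5162 of all 18193 genes higher, against 2629 without it, and moved the median difference of all genes to 0.23. By subfamily, 4 of 9 measured R4 genes rose and 2 fell, and 2 of 3 R12 genes fell. None of 4 R7 genes and none of 3 RZ genes was called. Of all genes, 14.5% were called higher and 18.1% lower, and counts this small say little about a subfamily.

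Several of these genes are neighbours. In the RefSeq gene table of the assembly GRCm38.p6, Rgs2, Rgs13, Rgs1, Rgs21 and Rgs18 follow each other in this order on chromosome 1 with no other protein-coding gene between them. The first 3 rose in sorted samples in all 3 pools, by 1.26, 2.68 and 3.43, and Rgs18 at the far end stood at -1.93. Rgs21 was not analysed here. Rgs16 and Rgs5 lie elsewhere on chromosome 1.

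**Figure D3:**
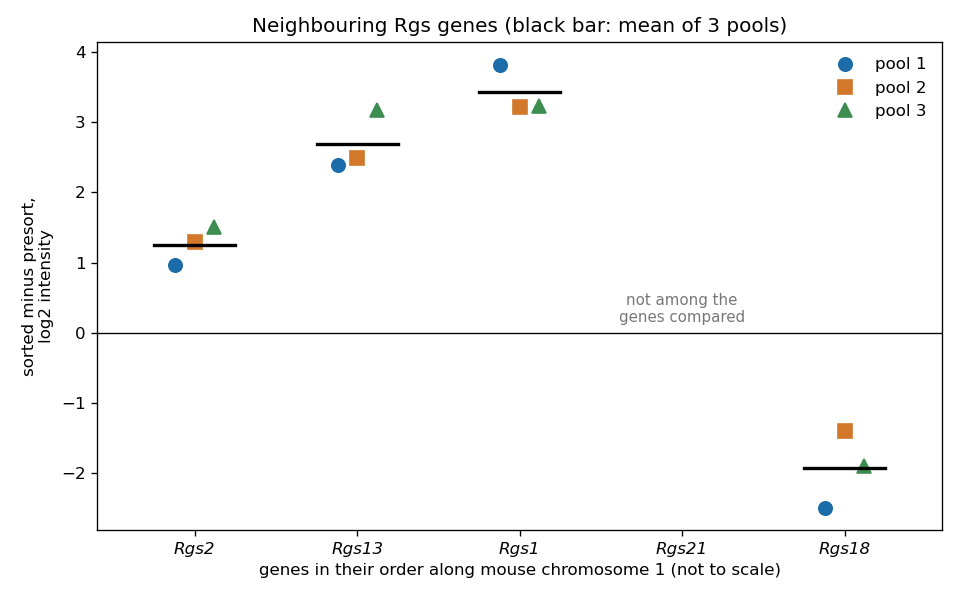
Sorted minus presort difference (y axis, log2 intensity) in each of the 3 pools for the neighbouring Rgs genes, in their order along chromosome 1, with black bars for the mean. Rgs2, Rgs13 and Rgs1 lie above 0 in every pool, and Rgs18 lies below 0 in every pool.

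Promoter sequences are shown for the called genes whose promoter held a searched motif, and for Rgs13 as the neighbour that rose. RefSeq's table of promoters (GRCm38.p6, 250 bases before to 50 bases after a gene's start) held 11 promoters of 7 of the 10 genes, none of them of Rgs1, Rgs14 or Rgs18. Each was searched on both strands for AP-1 (TGANTCA), the full cAMP response element (TGACGTCA) and its core TGACG, which lies within the full element, and for EBF1 (TCCC, any 2 bases, then GGGA), PU.1 (GAGGAAG) and EGR (GCGTGGG). The promoters of Rgs3, Rgs5 and Rgs10 and the first of Rgs12 held no match. The sequences run 5' to 3' on the gene's strand, and capitals mark the matches. Rgs2 is at chr1:144004100-144004399 on the minus strand, Rgs13 at chr1:144177323-144177622 on the minus strand, Rgs16 at chr1:153740103-153740402 on the plus strand, and the second listed start of Rgs12 at chr5:34998828-34999127 on the plus strand.
Rgs2: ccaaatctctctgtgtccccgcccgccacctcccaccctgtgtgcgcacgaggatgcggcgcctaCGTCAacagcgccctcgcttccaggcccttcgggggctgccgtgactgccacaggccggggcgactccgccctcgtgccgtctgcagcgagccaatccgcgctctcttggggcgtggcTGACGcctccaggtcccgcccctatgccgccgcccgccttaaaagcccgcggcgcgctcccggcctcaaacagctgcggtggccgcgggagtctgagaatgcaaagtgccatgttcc
Rgs13: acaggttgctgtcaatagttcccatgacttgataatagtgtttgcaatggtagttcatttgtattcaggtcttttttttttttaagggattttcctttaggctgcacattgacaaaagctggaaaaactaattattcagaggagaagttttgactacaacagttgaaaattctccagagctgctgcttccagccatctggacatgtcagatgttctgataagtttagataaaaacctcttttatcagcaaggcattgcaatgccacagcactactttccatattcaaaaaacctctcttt
Rgs16: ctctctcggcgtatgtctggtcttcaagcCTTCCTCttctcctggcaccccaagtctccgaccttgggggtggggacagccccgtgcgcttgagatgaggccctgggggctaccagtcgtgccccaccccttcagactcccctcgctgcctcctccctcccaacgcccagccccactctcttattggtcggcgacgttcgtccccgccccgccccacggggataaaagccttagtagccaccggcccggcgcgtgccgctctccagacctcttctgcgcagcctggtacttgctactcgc
Rgs12: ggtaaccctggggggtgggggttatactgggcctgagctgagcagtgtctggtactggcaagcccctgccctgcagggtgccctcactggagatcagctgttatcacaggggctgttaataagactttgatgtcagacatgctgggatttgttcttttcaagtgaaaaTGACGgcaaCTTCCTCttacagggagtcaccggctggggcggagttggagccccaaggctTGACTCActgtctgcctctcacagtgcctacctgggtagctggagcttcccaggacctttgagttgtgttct

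The Rgs2 promoter held the TGACG core at 2 places, once on each strand, as 20.8% of all 32851 promoters held it at least once. The Rgs16 promoter held 1 PU.1 match, found in 13.6% of all promoters, and all 3 listed promoters of Rgs19, which was not called, held that string too, 2 of them at one shared place where they overlap. The second Rgs12 promoter, of a gene that fell, held 1 match each for AP-1 (7.81% of all promoters), the TGACG core and PU.1. The Rgs13 promoter held none of the 6 letter strings and was poor in G and C, at 36.7%, against 70.0% for Rgs2 and a median of 52.7% over all promoters. No promoter of the 7 genes held the full cAMP response element (1.79% of all promoters), the EBF1 string (0.904%) or the EGR string (5.04%). A match here is a string of letters and not a measured binding site.

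The genes with profiles most like each Rgs gene were found by the root mean square distance over the 6 arrays, each profile centred on its mean. Profiles were not scaled, so distances of different Rgs genes cannot be compared as degrees of likeness. Nearest to Rgs1 were Il2ra, a chain of the interleukin 2 receptor, at 0.27, Tnfaip3, an inhibitor of NF-kappaB signalling, at 0.29, and Dusp10, a MAP kinase phosphatase, at 0.34. Nearest to Rgs2 were Zfp653 at 0.05, P2rx3 at 0.07 and Hook1 at 0.08. Nearest to Rgs18 were Cenpm at 0.12 and Ncaph at 0.13, which act on mitotic chromosomes, and Lgals1, which encodes a galectin, at 0.13. Nearest to Rgs3 were Ctsb, which encodes a lysosomal protease, at 0.05, Ncoa4 at 0.09 and Cyba, a subunit of the phagocyte oxidase, at 0.10. Nearest to Rgs10 was Ncoa7 at 0.06, to Rgs12 Hsd3b7 at 0.07, to Rgs14 Pcbd1 at 0.02, to Rgs16 Tceanc2 at 0.08 and to Rgs19 Cops7a at 0.06. Rgs5 was nearest to Gnat1, a photoreceptor gene, at 0.03. These are likenesses over 6 arrays, which share the difference between the groups for the 7 called genes, while the Rgs5 profile follows the higher value of sorted replicate 1.

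Among 15 measured G protein alpha subunits, which include classes other than Gi and Gq, 1 rose and 4 fell, with a median difference of 0.04. The share called is near the 32.6% of all genes called either way. The riser, named after its value was seen, was Gna13 at 0.49 ± 0.15 (limma adjusted p = 0.0443), and it lost its call with the actin covariate (0.25, 0.361) and without any one of the 3 pools, sorted replicate 1, sorted replicate 3, presort replicate 2 or presort replicate 3 (0.0637 to 0.287). Gna15, a Gq class subunit of blood cells, was at -1.77 ± 0.17 (SE, log2), Gna12 at -1.39 ± 0.12 and Gna14 at -0.70 ± 0.11. With the mean of their probe sets Gna12 was at -0.70 and Gna14 at -0.43, and both passed the test. Gna14 values, 5.14 to 5.40 in sorted and 5.91 to 6.02 in presort samples, were close to 5.21, the median of the genes of other organs. Among 15 beta and gamma subunits 1 rose and 2 fell (median -0.04), where 14.5% of all genes were called higher and 18.1% lower. Gng12 was at -1.48 ± 0.13 and Gnb2 at -0.77 ± 0.15, and the rise of Gnb1, 0.48 ± 0.14 (limma adjusted p = 0.0325), lost its call when its probe sets were averaged (0.19, 0.351) and with the actin covariate (0.37, 0.200). It also lost the call when sorted replicate 1, sorted replicate 3, presort replicate 2, presort replicate 3, pool 2 or pool 3 was left out, at adjusted p from 0.0738 to 0.244.

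Receptor kinases and arrestins, which silence the receptor itself, were read in 7 genes, of which 4 fell and none rose, with a median of -1.48. Of all genes, 14.5% were called higher and 18.1% lower. With the replicate block, and also with quantile renormalization or median centring, 1 of the 7 was called higher. The beta-arrestin genes Arrb1 and Arrb2 were at -2.85 ± 0.20 and -2.41 ± 0.16 (SE, log2), and Grk3 at -2.20 ± 0.15, or -1.22 without probe sets that can match several transcripts. Among 16 other proteins with RGS-like or GoLoco domains or related roles, 5 rose and 5 fell (median 0.14), against the same shares of all genes. Gpsm2 was at -2.73 ± 0.13, Arhgef12 at -2.52 ± 0.13, or -1.54 as an average of its probe sets, and Gpsm3 at -1.41 ± 0.18. Of 4 binding partners, the R7 anchor gene Rgs7bp rose by 0.56 ± 0.14 (limma adjusted p = 0.0173) and Rgs9bp, the photoreceptor anchor, was at -0.59 ± 0.14 (0.0120). Rgs7bp lost its call when sorted replicate 3, presort replicate 1, presort replicate 2 or pool 2 was left out, at adjusted p from 0.0577 to 0.141, and its mean over probe sets was 0.30. Rgs9bp lost its call when presort replicate 2, presort replicate 3, pool 2 or pool 3 was left out, at adjusted p from 0.0529 to 0.150. It also lost it with median centring (0.0670) and with the actin covariate (0.0512). Rgs9bp values, from 4.88 to 5.77, lay around 5.21, the median of the genes of other organs, and so near background.

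Of 15 downstream effector genes 1 rose and 4 fell (median -0.22), again near the share of all genes called. The riser, named after its value was seen, was the adenylyl cyclase gene Adcy7 at 0.49 ± 0.15 (limma adjusted p = 0.0365). It lost its call with the replicate block (0.0589), array weights (0.0662), the actin covariate (0.136), the average of its probe sets (0.20, 0.272), no probe sets that can match several transcripts (0.19, 0.382), and without sorted replicate 1, sorted replicate 2, presort replicate 1, presort replicate 2, pool 1 or pool 2 (0.0666 to 0.285). The phospholipase C genes Plcb1 and Plcb4 were at -2.72 ± 0.20 and -1.64 ± 0.20 (SE, log2), and the adenylyl cyclase gene Adcy6 at -1.67 ± 0.15, and with the mean of their probe sets Plcb1 was at -0.77 and Plcb4 at -0.58. Of 36 leukocyte receptors that couple to G proteins, 8 rose and 16 fell (median -0.27), where 14.5% of all genes were called higher and 18.1% lower. The largest falls were those of the chemokine receptor genes Ccr1 and Ccr2, at -3.66 ± 0.30 and -3.48 ± 0.34, and of the complement receptor gene C5ar1, at -3.55 ± 0.32. The largest rises, named after their values were seen, were those of S1pr1, a sphingosine 1-phosphate receptor of lymphocyte egress, by 3.15 ± 0.42, and Ccr7, a chemokine receptor of lymph node homing, by 2.87 ± 0.17.

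**Figure D4:**
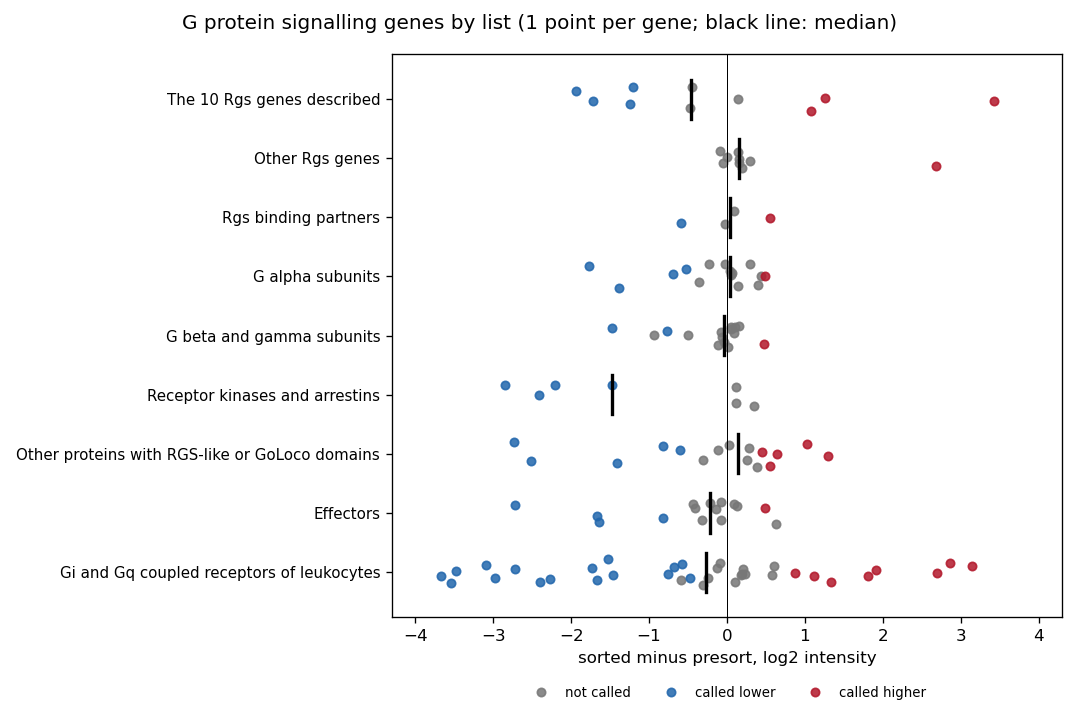
Sorted minus presort difference (x axis, log2 intensity) of each measured gene of the 10 Rgs genes and of 8 lists of G protein signalling genes, with black lines for list medians. Points are placed at random heights within a row, red for genes called higher, blue for genes called lower and grey for genes not called, and receptors spread furthest, from -3.66 to 3.15.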

How the data were processed

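RNA of 3 sorted and 3 presort samples was labelled from the 3' end and read on 1 Affymetrix array each, per the labels' protocols. The authors deposited linear intensities (9.71 to 38492.08 on each array), made by the authors with RMA, per the submitters' processing notes, whose version is not given in the sources used here. All arrays share 1 distribution, so a change in total RNA per cell leaves no trace. Intensities of different probe sets have no strict order, so the background gauge and the sums over markers are only rough guides.

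Log2 was taken without a pseudocount and no dim genes were filtered. Of 45101 probe sets, 34945 carried 1 symbol, and 0 symbols needed an update against the RefSeq table. The test was limma's (version 3.58.1, R 4.3.3, functions lmFit and eBayes, two-sided), adjusted by Benjamini-Hochberg over 18193 genes or 45037 probe sets. 32.6% of genes were called, and 7283 had an unadjusted p under 0.05. The fit was tested on simulated data. The number of arrays limits the precision.

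The labels give same-numbered samples 1 pool, so the numbers pair them. Deviations from group means correlated at 0.39, 0.20 and -0.03 in pools 1, 2 and 3, and the block is an alternative. Others were leaving out arrays or pools, 3 choices on probe sets and dim genes, both renormalizations, an intensity trend, array weights and the beta-actin covariate. The genes and lists were chosen with earlier results of these data known. All 10 genes are named, with up to 3 genes of a list by largest called difference and further risers named after their values were seen. The 3 closest profiles are given for Rgs1, Rgs2, Rgs3 and Rgs18 and the closest 1 for the others, unnamed transcripts passed over. Protein sequences were not used here. Figures were drawn with matplotlib 3.10.9.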

Additional observations from a re-analysis of the deposited data

How the results depend on the processing

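Over 18 alternatives, the 3 calls of higher Rgs genes and the 4 calls of lower ones each held, and no called gene changed sign. Rgs1 ranged from 2.36 to 3.75, Rgs2 from 1.13 to 1.48, Rgs16 from 0.92 to 1.31, Rgs18 from -2.20 to -1.21, Rgs3 from -1.40 to -0.67, Rgs12 from -2.14 to -0.73 and Rgs10 from -1.57 to -1.02 (log2, limma). The replicate block left the differences as they were and brought the count of lower Rgs genes to 6, through Rgs14 and Rgs19 (adjusted p of 0.0269 and 0.0417), and it changed no other call of the 10. Rgs14 and Rgs19 also passed without sorted replicate 2 (0.0136 and 0.0188) and with array weights (0.0232 and 0.0275). Rgs14 passed with the mean of probe sets (0.0447), although only 1 probe set reads it. Rgs19 passed with dim genes filtered out (0.0485), where Rgs5 had no value. Under the probe set mean for Rgs14 and the filter for Rgs19, the differences stayed at -0.44 and -0.48, as in the main fit. Over all genes, leaving out 1 array or pool gave 1544 to 2608 higher and 2362 to 3256 lower genes, against 2629 and 3296. Pool 3 gave the lowest count of each. Centring each array on its median over genes moved the median difference of all genes to 0.23, called 5162 genes higher and put 66.7% of calls on the higher side, against 44.4% as deposited. Rgs5, called in none of its fits, changed sign with the actin covariate (-0.06) and without replicate 1 (-0.02). The causes were not tested.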
